A study of Mus musculus with 12 samples.

Results

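Chromatin accessibility in bone marrow was examined at 8 genes of the red cell membrane and its skeleton: Slc4a1, Epb42, Ank1, Sptb, Epb41, Rhag, Rhd and Kel. The assay was ATAC-seq, in which the Tn5 transposase inserts sequencing adapters wherever DNA lies exposed between nucleosomes, so that the count of reads over a region rises with its openness. From the authors' consensus table, a peak was taken if its centre fell inside a member gene or within 10 kb of either end (RefSeq positions on GRCm38), and it was given to the nearest member. This rule took 130 of 75281 peaks and reached 8 of 8 genes. Epb41 had 37 peaks, Sptb 26, Ank1 24, Rhd 18, Rhag 8, Slc4a1 6, Epb42 6 and Kel 5. Of the 130 centres, 103 lay inside the member gene and 27 outside it, and 13 were nearer to another protein-coding gene.

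The mice were NZO/HILtJ, an inbred line that becomes obese and often diabetic, and the labels give no treatment and no further allele. There were 4 groups of 3 numbered mice, with 1 library per mouse: females aged 3 months, males aged 3 months, females aged 18 months and males aged 18 months. The labels name the tissue as bone marrow, whereas the protocol in the same labels describes a sort of CD3e+ CD8+ T cells. Of 10 T cell marker genes, Cd8a and Cd8b1 had no peak within 10 kb and the other 8, Cd3e among them, had 1 to 8 peaks each. All 10 of 10 erythroid marker genes had peaks, and the libraries are called bone marrow here, as the tissue label has it. Each library held between 7668099 and 12756647 counts in peaks, at which 3 counts equal 0.235 to 0.391 CPM, the count scaled to library size. The 18-month females were sequenced in run 14, the 18-month males in run 15 and the 3-month mice in runs 28 to 31. No run held both ages, so age cannot be told apart from run and date, nor sex from run at 18 months, and no within-run value exists for any age difference.

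A red cell keeps its shape through a net of spectrin under its membrane. Ankyrin ties that net to band 3, the anion exchanger, with the help of protein 4.2, and the Rh proteins sit in the same complex. Another kind of anchor, built on protein 4.1 and actin, holds the ends of the spectrin molecules and carries the Kell protein among others. These genes are switched on while erythroblasts mature in the marrow, under erythroid factors that include GATA1 and KLF1, and inherited defects in several of them cause spherocytosis or elliptocytosis.

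RefSeq start sites were matched for 6 of the 8 members, and 8 such sites lay in 8 of the peaks. The 250 bases before the start are printed for those 6 members because the peaks over these starts are described gene by gene below. They are read from RefSeq, build GRCm38.p6, 5′ to 3′ on the gene's strand. Capitals mark 2 kinds of letters found on either strand: AGATAA or TGATAA, which GATA factors can bind, and CCNCNCCC, which KLF factors can bind.
Epb42, chr2:121036878-121037127, minus strand: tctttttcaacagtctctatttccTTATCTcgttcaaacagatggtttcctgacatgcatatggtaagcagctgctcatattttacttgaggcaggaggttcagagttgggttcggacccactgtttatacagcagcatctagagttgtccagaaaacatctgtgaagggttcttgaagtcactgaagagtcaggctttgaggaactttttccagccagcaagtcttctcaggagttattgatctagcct
Kel, chr6:41704326-41704575, minus strand: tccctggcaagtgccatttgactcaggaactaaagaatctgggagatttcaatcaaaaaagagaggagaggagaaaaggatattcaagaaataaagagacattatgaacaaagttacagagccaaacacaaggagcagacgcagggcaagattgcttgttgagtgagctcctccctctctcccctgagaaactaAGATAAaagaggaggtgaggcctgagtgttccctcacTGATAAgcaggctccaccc
Rhd, chr4:134864286-134864535, plus strand: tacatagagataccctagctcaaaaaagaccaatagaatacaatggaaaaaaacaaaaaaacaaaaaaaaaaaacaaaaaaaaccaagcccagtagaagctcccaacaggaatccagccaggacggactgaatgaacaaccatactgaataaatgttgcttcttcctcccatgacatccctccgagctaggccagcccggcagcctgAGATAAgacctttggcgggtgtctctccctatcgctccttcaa
Rhag, chr17:40810899-40811148, plus strand: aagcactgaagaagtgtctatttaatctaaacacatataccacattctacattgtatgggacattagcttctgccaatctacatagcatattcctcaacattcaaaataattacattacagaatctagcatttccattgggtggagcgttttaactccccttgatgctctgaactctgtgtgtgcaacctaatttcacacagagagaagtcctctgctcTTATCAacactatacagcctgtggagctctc
Sptb, chr12:76710548-76710797, minus strand: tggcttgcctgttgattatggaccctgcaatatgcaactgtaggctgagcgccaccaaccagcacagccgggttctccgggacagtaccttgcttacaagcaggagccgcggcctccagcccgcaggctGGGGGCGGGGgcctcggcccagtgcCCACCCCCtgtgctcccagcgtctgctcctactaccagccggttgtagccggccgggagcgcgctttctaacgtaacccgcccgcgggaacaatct
Epb41, chr4:132075314-132075563, minus strand: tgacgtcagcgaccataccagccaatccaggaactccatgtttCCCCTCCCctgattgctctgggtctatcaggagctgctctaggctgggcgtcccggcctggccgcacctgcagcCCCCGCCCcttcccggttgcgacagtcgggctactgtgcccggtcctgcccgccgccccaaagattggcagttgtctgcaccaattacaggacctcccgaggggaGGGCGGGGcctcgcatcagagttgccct

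The 6 windows fell into separate kinds by their letters. Epb42, Kel, Rhd and Rhag held the GATA letters and none of the KLF letters, with GC contents of 43.2%, 45.6%, 43.6% and 39.2%. The GATA match began 226 bases before the start in Epb42, 43 in Rhd and 31 in Rhag, and Kel had a match at 56 and another at 19 bases. Sptb and Epb41 held 3 KLF matches each and no GATA match, with a GC content of 65.2% in both and 18 and 15 CpG dinucleotides against 1 to 5 in the other 4 windows. Among all 32851 RefSeq promoter windows of this length, 16.6% held the GATA letters and 45.9% the KLF letters, and the median GC content was 52.4%. The E-box CAGNTG, occurred in Epb42, Sptb and Epb41 (44.8% of all windows). A CTG followed after 8 or 9 bases by GATA occurred in Epb42, Kel and Rhag (4.01% of all windows), where it shares letters with the GATA match. These are matches of letters, not measured binding.

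At 18 months the chromatin of the membrane genes was less accessible than at 3 months. All 130 peaks passed the filter on low counts, and 72 of them were lower, 0 higher and 58 not called at an adjusted p under 0.05 (edgeR quasi-likelihood test of age beside sex, Benjamini-Hochberg over 75164 peaks). Over all tested peaks, 11.6% were lower and 9.43% higher, and the members' 55.4% is read against those shares. The median log2 fold change of the 130 peaks, 18 over 3 months, was -0.46 (range -1.15 to 0.09), against 0.02 over all tested peaks. The sign was negative at 126 peaks. In 34 of the 130 (26.2%) the 6 old libraries all lay under the 6 young ones, which held for 5.04% of all tested peaks. No member peak was higher at an unadjusted p under 0.05 either, and DESeq2 also called 0 higher and 73 lower. Scaling by total counts left 59 member peaks lower and 0 higher, while over all tested peaks it turned the main split of 8689 lower and 7089 higher into 6629 lower and 11196 higher.

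**Figure D1:**
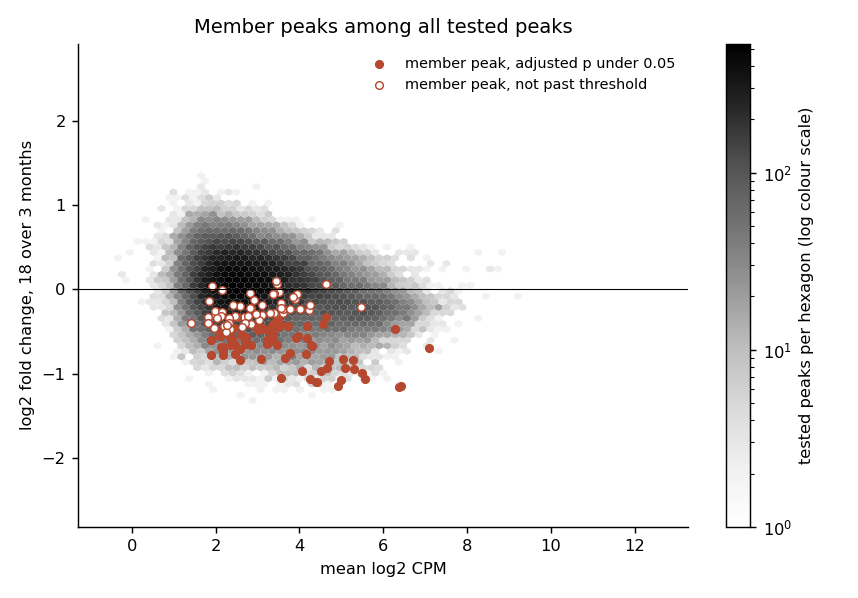
Log2 fold change of accessibility (18 over 3 months, y axis) against mean log2 CPM (x axis) for all 75164 tested peaks, shown as grey hexagons shaded by number on a log scale, with the 130 peaks of the membrane genes as points. Filled points are the 72 peaks past the threshold; all of them lie under 0, and the open points run from -0.51 to 0.09.

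Highly accessible peaks were called lower more often across the genome, so the members were also set against peaks of like abundance. In the lowest quartile of log2 CPM, 10 of 24 member peaks were lower against 2.52% of all peaks there. In the next quartile the count was 14 of 30 against 5.21%, and in the third it was 18 of 37 against 10.7%. In the highest quartile 30 of 39 were lower against 27.8%. The member peaks were also wide, at a median of 1028.5 bp, where the median over the table was 706 bp. Of the 10 member peaks at least 3000 bp wide, 9 were lower, against 43.7% of all peaks of that width, and of the 120 narrower ones 63 were lower, against 10.4%.

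Summed over its peaks, each of the 8 genes was lower at 18 months, and in none of them did the ages overlap. Among all 16466 protein-coding genes tested in the same way, 29.9% were lower and 10.3% higher, and 13.8% were lower without overlap. That split depends on scaling: 4925 lower and 1703 higher genes became 3071 and 3158 with offsets by abundance trend, where all 8 members stayed lower. The median over the 8 genes was -0.60 on the log2 scale, against -0.08 over all genes. Gene sums of the 2 ages differed on the log2 scale by the most for Slc4a1 and by the least for Rhd. In bulk tissue, fewer cells of the red lineage and less accessible chromatin per cell cannot be told apart.

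**Figure D2:**
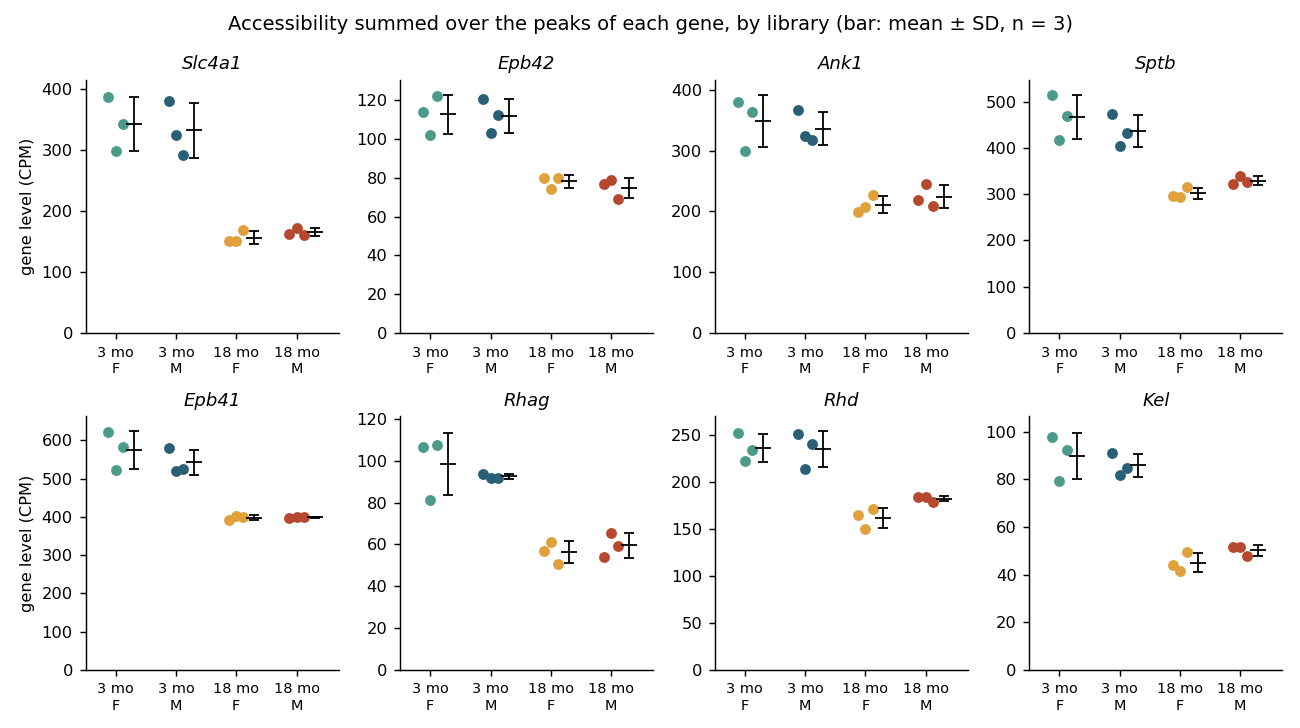
Accessibility summed over the peaks of each gene (y axis, CPM, starting at 0) in every library, by age and sex (x axis), with the mean ± SD of the 3 mice of a group as a bar. In all 8 panels the 6 libraries of 18 months lie under the 6 of 3 months, and in Epb41 the old libraries span only 391 to 403 CPM.

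Slc4a1 (gene 20533, chr11:102348820-102365281) encodes band 3, the chloride and bicarbonate exchanger that is the main integral protein of the red cell membrane. Its summed accessibility was 292, 334 and 387 CPM (lowest, median and highest) in the 6 libraries of 3 months and 150, 162 and 173 CPM in the 6 of 18 months. The old libraries were all low and close together, and a wide gap of 119 CPM separated the ages. The log2 fold change was -1.07 (SE 0.07, edgeR adjusted p = 5.06e-09), which leaves 47.7% of the young level and ranks 2 among the 16466 genes from the largest decrease. All 6 of its peaks were lower. Its most accessible peak, 7410 bp wide at chr11:102346956-102354365, covered one gene end and fell by 1.14 (SE 0.09, edgeR adjusted p = 9.93e-13). The peak over the other gene end, chr11:102361193-102366614, had 95.7, 113 and 132 CPM at 3 months and 46.4, 51.4 and 55.1 CPM at 18 months. It changed by -1.15 (SE 0.09), about as much as the first, and the smallest difference, -0.61 (SE 0.22, edgeR adjusted p = 0.0399), belonged to a weak peak 9.58 kb outside the gene.

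Epb42 (gene 13828, chr2:121017891-121036877) encodes protein 4.2, which steadies the contact between band 3 and ankyrin. The gene sum was 102, 113 and 122 CPM at 3 months and 69.0, 77.8 and 80.1 CPM at 18 months, with no overlap. Its log2 fold change was -0.55 (SE 0.06, edgeR adjusted p = 7.41e-07). The start-site peak, chr2:121035606-121037578, which takes in the whole promoter printed above, carried most of it. That peak had 33.9, 42.3 and 48.1 CPM at 3 months and 15.1, 19.1 and 20.8 CPM at 18 months, a log2 fold change of -1.15 (SE 0.10, edgeR adjusted p = 1.51e-11). Of the other 5 peaks 1 was lower, and the strongest of them, at 44.4 CPM on average, lay over the start of the neighbouring gene Ccndbp1 and had a value of -0.21 (SE 0.09, edgeR adjusted p = 0.104). The gene's value therefore rests on which peaks are summed: it was -0.87 without peaks nearer another gene, -0.29 without the start-site peak and -0.21 (adjusted p = 0.0702) when the most accessible peak of the window stood for the gene. Over its 23 alternatives the adjusted p ran from 7.00e-11 to 0.0702.

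Ank1 (gene 11733, chr8:22974836-23150501) encodes ankyrin-1, the adaptor between band 3 and spectrin and the gene most often mutated in hereditary spherocytosis. The 6 young libraries summed to 300.0, 344 and 381 CPM and the 6 old ones to 199.8, 214 and 245.3 CPM. The groups stood apart, with a log2 fold change of -0.65 (SE 0.06, edgeR adjusted p = 1.75e-07). All 24 peaks lay inside the gene, and 17 of them were lower. The decreases were large in 4 peaks between 0 and 25.7 kb from the most accessible one: that peak (chr8:23027102-23029663) fell by 0.82, and the others at 2.42, 5.89 and 25.7 kb fell by 1.10, 0.93 and 1.07 on the log2 scale. A narrow but strong peak 67.3 kb away, chr8:23095484-23095798, behaved differently, with 18.7, 24.4 and 28.3 CPM at 3 months and 19.6, 25.8 and 29.2 CPM at 18 months. Its ages overlapped fully (0.06, SE 0.11, edgeR adjusted p = 0.740). The 7 peaks that were not called ranged from -0.47 to 0.06.

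Sptb (gene 20741, chr12:76580488-76710547) encodes the beta chain of erythroid spectrin, the rod that forms the net. Its sum was 405, 450.4 and 513 CPM at 3 months and 295, 318 and 339 CPM at 18 months, without overlap. The log2 fold change was -0.52 (SE 0.06, edgeR adjusted p = 6.04e-07), and 10 of its 26 peaks were lower. The start-site peak, chr12:76707506-76710948, had 53.0, 60.9 and 81.7 CPM in young and 24.5, 29.1 and 35.6 CPM in old mice. It was lower in every old library than in any young one, with a log2 fold change of -1.06 (SE 0.10, edgeR adjusted p = 7.47e-11). A pair of wide peaks 34.4 and 38.7 kb into the gene fell by 0.95 and 0.84 on the log2 scale. Towards the far end of the gene the values were nearer 0: the widest peak of Sptb, 115 kb from the start-site peak, fell by 0.47 (SE 0.09), and the 5 peaks beyond it, 2 of them inside Plekhg3, ranged from -0.34 to 0.09 and were not called.

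Epb41 (gene 269587, chr4:131923413-132075346) encodes protein 4.1R, which locks spectrin to actin and is also made outside the red lineage. Its sum was 521, 553 and 622 CPM at 3 months and 391, 399.5 and 403 CPM at 18 months. The old libraries were nearly alike and all low, and the log2 fold change was -0.49 (SE 0.04, edgeR adjusted p = 1.03e-07). Of its 37 peaks 19 were lower. The start-site peak printed above, chr4:132074091-132079176, was the most accessible of the 130 and had 132, 175 and 189 CPM in young and 93.9, 102 and 116 CPM in old mice. The ages did not overlap there, but its difference of -0.70 (SE 0.09, edgeR adjusted p = 5.23e-08) was the smallest among the 8 genes' start-site or most accessible peaks. The value depends on the scaling: it was -0.44 with offsets by abundance trend and -0.45 with offsets by peak width, still the smallest of the 8, and the gene sum was -0.31 with trend offsets. Peaks over the other listed start sites of the gene, 4.08 and 27.8 kb into it, fell by 0.41 and 0.67 on the log2 scale, and the largest decrease, 0.83 (SE 0.14), was at an intragenic peak 49.0 kb in. Of the 6 peaks that lay nearer to Tmem200b, 3 were lower.

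Rhag (gene 19743, chr17:40811099-40844094) encodes the Rh-associated glycoprotein, the partner without which the Rh complex does not reach the membrane. The young libraries gave 81.4, 93.0 and 108 CPM and the old ones 50.8, 58.1 and 65.6 CPM, with no overlap. The log2 fold change was -0.72 (SE 0.08, edgeR adjusted p = 5.45e-07). Its peaks ran from strong to weak differences with distance: 4 of the 8 were lower, from 5.18 kb before to 5.90 kb beyond the start-site peak, and the 4 farther in had values of -0.44 to -0.22 and were not called. The start-site peak, chr17:40810629-40812900, had 20.8, 24.4 and 33.2 CPM at 3 months and 9.61, 11.4 and 15.8 CPM at 18 months. That is a log2 fold change of -1.07 (SE 0.13, edgeR adjusted p = 6.37e-09).

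Rhd (gene 19746, chr4:134864536-134896172) encodes the Rh blood group polypeptide. Its sum was 214, 237 and 252.1 CPM in young and 150, 175 and 184 CPM in old mice, again without overlap. The log2 fold change of -0.46 (SE 0.05, edgeR adjusted p = 1.82e-06) was the weakest of the 8 genes, although the difference at its start-site peak was larger. That peak, chr4:134864070-134864845, had 13.4, 15.03 and 18.4 CPM at 3 months and 6.13, 7.28 and 9.42 CPM at 18 months (log2 fold change -1.05, SE 0.13, edgeR adjusted p = 2.75e-08). Another peak 5.29 kb into the gene fell by 1.10 (SE 0.11). The other peaks were weaker in their response: 9 of 18 were lower in all, and the 9 not called ranged from -0.37 to 0.06.

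Kel (gene 23925, chr6:41686329-41704334) encodes the Kell blood group protein, a zinc endopeptidase of the outer membrane face. It had 79.3, 88.1 and 97.8 CPM at 3 months and 41.7, 48.6 and 51.5 CPM at 18 months. Old libraries held 54.1% of the young mean, and the log2 fold change was -0.89 (SE 0.07, edgeR adjusted p = 3.20e-08), next after Slc4a1. All 5 peaks were lower, from -0.97 to -0.57. The start-site peak, chr6:41702297-41705545, had 37.8, 43.7 and 52.7 CPM in young and 20.2, 22.6 and 27.8 CPM in old mice (log2 fold change -0.94, SE 0.10, edgeR adjusted p = 9.31e-10). The 2 peaks beside Llcfc1, beyond the other end of the gene, were the weakest in level and fell by 0.84 and 0.57 on the log2 scale.

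**Figure D3:**
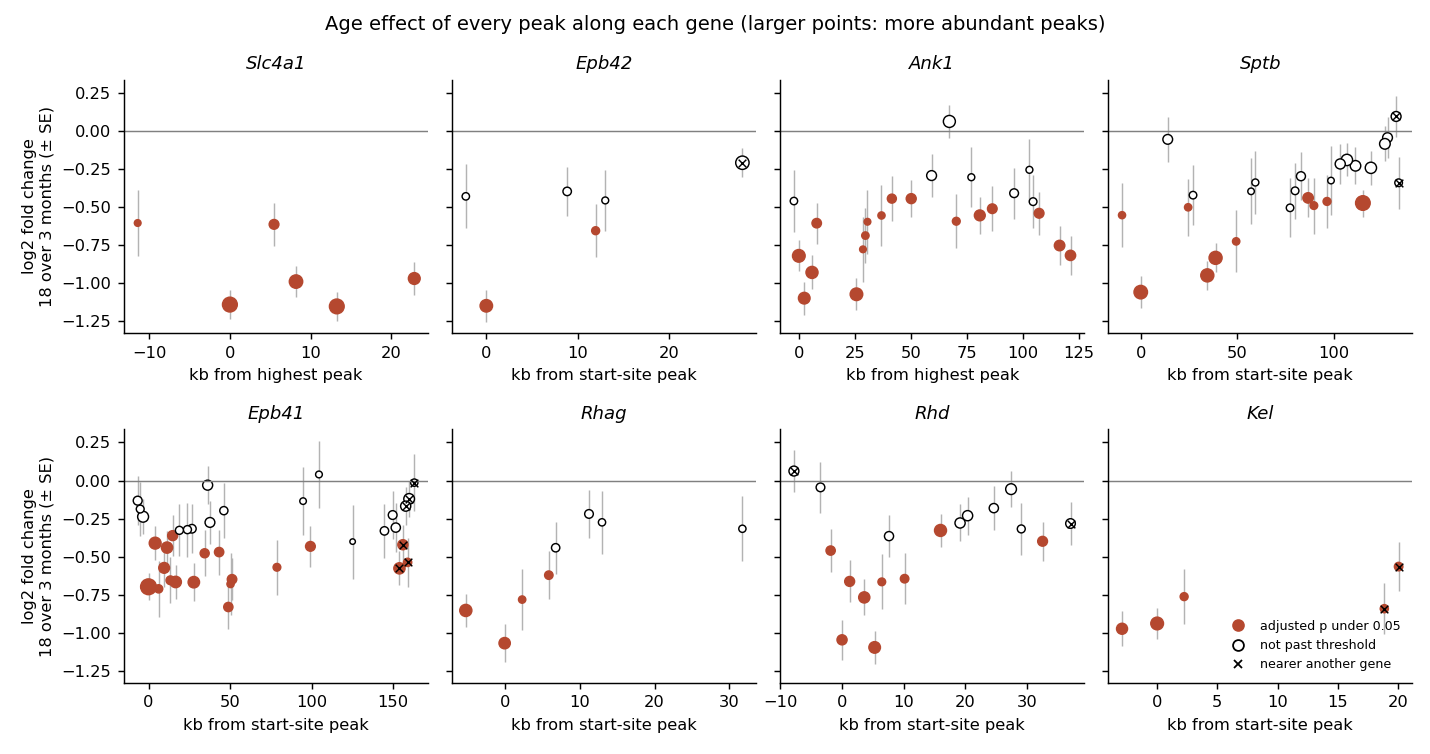
Log2 fold change (18 over 3 months, ± SE, y axis) of each of the 130 peaks against its distance in kb from the start-site peak of its gene, or from the most accessible peak in Slc4a1 and Ank1 (x axis). Filled points passed the threshold, crosses mark the 13 peaks nearer to another gene and point size follows abundance. In Rhag and Sptb the start-site peak lies lowest, and in Rhd another peak lies slightly lower than it. Many distant points in these genes lie nearer to 0.

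In 4 genes, Epb42, Sptb, Rhd and Rhag, the start-site peak lost more than the rest of the gene. This was measured as the peak's share of its gene's counts. Within a library that share does not depend on a factor common to all peaks, but shifts that follow abundance or width were not taken out. The share was tested by a two-sided exact permutation test, adjusted over all 13647 genes with at least 2 peaks. Those genes had the same main peak rule: the start-site peak, or the most accessible one where no start site matched. A falling share was common among them, with a median difference of -1.65 percentage points. It was lower at an unadjusted p under 0.05 in 23.5% of them and called in 7.48%, against 6 and 4 of the 8 members. The share of Epb42 was 37.1% ± 3.68 in the 6 young libraries and 24.4% ± 2.32 in the 6 old ones (mean ± SD). The ages stood apart (exact permutation test, p = 0.00216, adjusted p = 0.0388). Without the peaks nearer another gene the share was 64.3% in young and 53.0% in old mice, the ages overlapped and the call was lost (exact permutation test, p = 0.0108, adjusted p = 0.0749). In Sptb it was 13.98% ± 1.21 against 9.64% ± 1.23 and in Rhd 6.69% ± 1.06 against 4.45% ± 0.880, in young and old mice. The ages did not overlap in either gene, by a narrow margin in Rhd, and the adjusted p was 0.0388 for each in the exact permutation test. Without the peaks nearer another gene the ages overlapped in Rhd, with the highest old share at 6.27% and the lowest young one at 6.08%. The call was kept there (exact permutation test, p = 0.00433, adjusted p = 0.0494).

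For Rhag the share was 26.4% ± 2.80 in young and 20.8% ± 2.02 in old mice (exact permutation test, p = 0.00433, adjusted p = 0.0494), and the highest old library overlapped the lowest young one. The difference, -5.67 percentage points, was -10.29 when only peaks within 3 kb of the gene were summed. Each of these 4 calls was lost in 10 or 11 of the 12 settings that left out a single library, with an adjusted p of at most 0.0870 in exact permutation tests, while the differences ran from -14.02 to -12.04 points for Epb42, -4.68 to -3.94 for Sptb, -2.46 to -1.86 for Rhd and -6.34 to -4.81 for Rhag. The shares of Epb41, 30.0% against 26.0%, and of Ank1, 12.2% against 10.9%, had an unadjusted p of 0.0216 and 0.0368 and were not called (exact permutation test, adjusted p = 0.108 and 0.147). Nor were Slc4a1 (34.9% against 33.1%, exact permutation test, p = 0.130, adjusted p = 0.307) and Kel (50.1% against 48.4%, exact permutation test, p = 0.392, adjusted p = 0.593). In Slc4a1 and Kel the mean share fell in 1 sex and rose slightly in the other, by less than the SD of the old mice there. The share of Slc4a1 went from 35.6% to 31.5% in females, without overlap, and from 34.1% to 34.8% in males. That of Kel went from 50.1% to 50.9% in females and, without overlap, from 50.1% to 45.8% in males. The old females of Kel stood at 46.1%, 50.5% and 56.2%, the highest being mouse 42. The difference between the ages for Kel, -1.73 percentage points over all mice, was -0.32 without the 2 peaks nearer another gene, -3.31 without the 18-month female 42, -0.98 without the 3-month female of run 28 and -1.06 without the 18-month male 38, and that for Slc4a1, -1.71, was -1.08 without the 3-month female of run 29. Whether the sexes differ in these shares was not tested. Within a sex, with 3 mice against 3, the smallest p that an exact permutation test allows is 0.10.

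**Figure D4:**
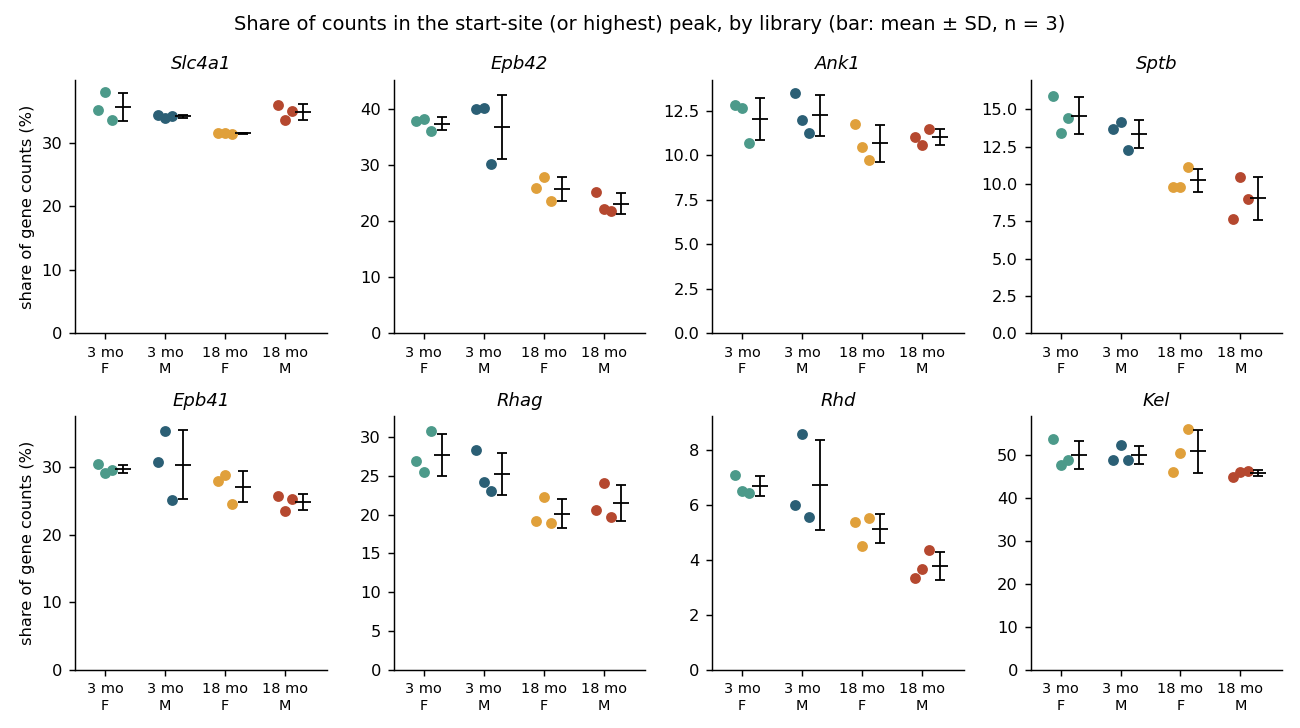
Share of a gene's counts that fell in its start-site peak, or its most accessible peak in Slc4a1 and Ank1 (y axis, percent, starting at 0), in every library by age and sex (x axis), with the mean ± SD of 3 mice as a bar. The old libraries lie under all young ones in Epb42, Sptb and Rhd, and the ages overlap in the other 5 genes.

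The order of the genes by mean level per kb also differed between the ages. Per kb of peak, Slc4a1 was the most accessible of the 8 genes at 3 months, with 16.4 ± 1.96 CPM per kb (SD, n = 6), followed by Epb42 at 14.1 ± 1.05 and Epb41 at 13.4 ± 1.01. At 18 months its level per kb was 7.83 ± 0.445 and the sixth of 8, with Epb42 at 9.60 ± 0.539 and Epb41 at 9.59 ± 0.0943 leading. Rhag was the lowest at both ages, at 10.8 ± 1.13 and 6.53 ± 0.594 CPM per kb. The place of Epb42 rests on peaks nearer to another gene: without such peaks it had 8.09 ± 0.471 CPM per kb at 18 months, the fifth of 8, while Epb41 led at 9.76 ± 0.132. With all peaks, at 3 months each gene's mean ± SD met that of the next gene in order. At 18 months the intervals did not meet between Epb41 and Rhd (8.68 ± 0.666) or between Slc4a1 and Kel (6.71 ± 0.570). All genes were measured in the same libraries, so such intervals do not test the order, and the order per kb was not tested.

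Whether 2 genes changed by different amounts was tested on the log2 ratio of their sums in each library, over 28 pairs, a test chosen after the values had been seen. The ratio changed for 18 of the 28 pairs (exact permutation test, two-sided, adjusted over the 28 pairs, the smallest adjusted p being 0.00606). At an unadjusted p under 0.05 it was also 18 (64.3%), against 43.2% of all pairs of tested genes, so that a changed ratio was frequent among any genes. Slc4a1 changed against every other member. Against Kel, the next in order, its log2 ratio moved by -0.18 (exact permutation test, adjusted p = 0.0130), and against Rhd by -0.61. Kel in turn changed against 5 of the other 6 genes, and not against Rhag (exact permutation test, adjusted p = 0.109). Among the rest, in the order Rhag, Ank1, Epb42, Sptb, Epb41 and Rhd, no neighbours were told apart, with adjusted p between 0.156 and 0.589 in exact permutation tests. Summing only peaks not nearer another gene gave 22 changed pairs and another order, in which Epb42, at -0.87 on the log2 scale, stood before Rhag at -0.72 and Ank1 at -0.65.

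The difference with age stood in females and in males. Within females 65 of the 130 peaks were lower and 0 higher in edgeR's test, against 6.2% of all peaks lower and 5.7% higher. Within males 32 were lower and 0 higher, against 8.18% lower and 3.21% higher, and 30 peaks were lower in both, against 3.57% of all peaks. The female count fell to 43 without the 18-month female 36 and to 41 without the 3-month female of run 28. All 8 gene sums were lower within each sex, where 15.3% of all genes were lower and 8.61% higher in females, and 29.2% lower and 4.8% higher in males. The log2 fold change of Slc4a1 was -1.13 (SE 0.09) in females and -1.01 (SE 0.09) in males, that of Sptb -0.63 (SE 0.07) and -0.41 (SE 0.07), and that of Epb42 -0.53 (SE 0.08) and -0.58 (SE 0.09). Females had the larger decrease in 7 of the 8 genes, where the median over all genes was -0.03 in females and -0.13 in males. No difference between the sexes was called in the members. The age by sex interaction, called in 0.0% of all genes, had an edgeR adjusted p of at least 0.318 for the 8 genes. Only Sptb had an unadjusted edgeR p under 0.05 (0.0324), where 14.7% of all genes had one.

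Among the 130 peaks, 0 interactions were called in edgeR (0.00532% of all tested peaks), and 11 (8.46%) had an unadjusted p under 0.05, against 9.99% of all peaks. All 11 had the more positive age difference in males. The 9.99% takes in both directions, and the share of all peaks in that direction alone was not counted. Neither a peak nor a gene sum of the members differed between the sexes with age as a covariate in edgeR (0 called), where 0.162% of all peaks and 0.285% of all genes were called. At an unadjusted p under 0.05 there were 4 member peaks and 0 member genes, against 7.57% of all peaks and 12.2% of all genes. At 18 months, when sex and run coincide, 14 of the 130 member peaks had an unadjusted p under 0.05, all higher in males, where 4.25% of all peaks were higher in males at that threshold. None was called in edgeR, against 0.337% of all peaks.

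**Figure D5:**
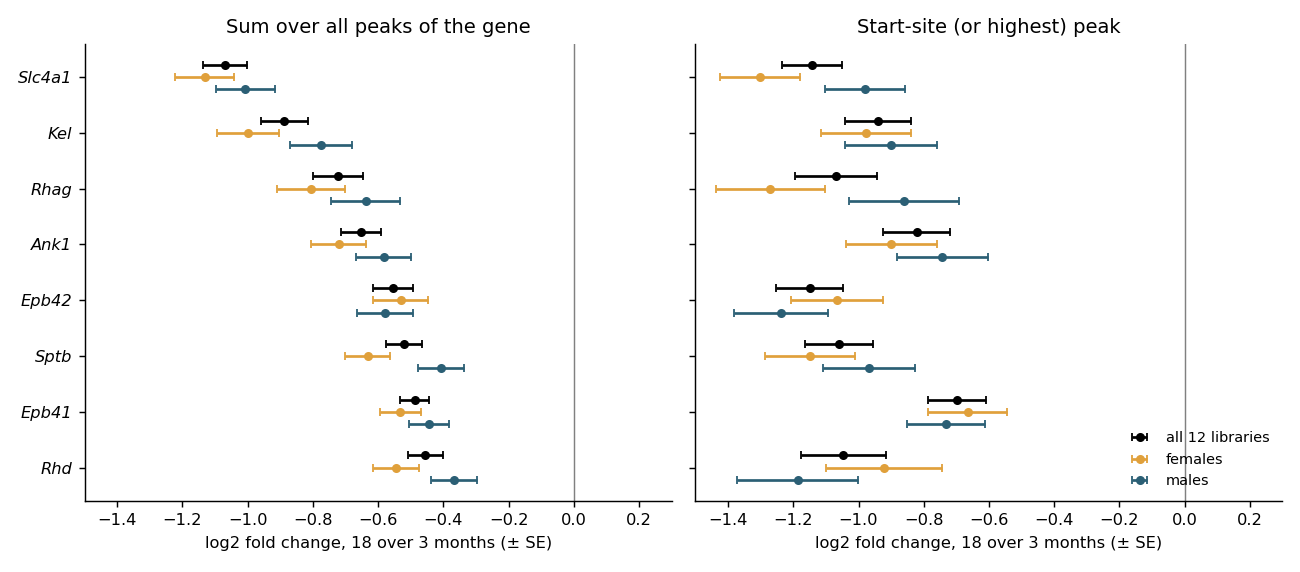
Log2 fold change with age (18 over 3 months, x axis, ± SE) of each gene (y axis), for the sum of its peaks on the left and for its start-site peak, or most accessible peak in Slc4a1 and Ank1, on the right. Black points use all 12 libraries, yellow points females and blue points males; no interval reaches 0, and on the right the genes from Rhd to Slc4a1 span only -0.70 to -1.15.

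Most other genes of the red cell membrane were lower as well. Of 25 further membrane and skeleton genes, all with peaks, 20 were lower, 0 higher and 5 not called in edgeR's test, against 29.9% of all genes lower and 10.3% higher. Their median log2 fold change was -0.48, against -0.08 over all genes. Tmod1, which caps the short actin filaments of the skeleton, fell by 0.79 (SE 0.07) on the log2 scale, from 62.9 ± 3.89 to 36.5 ± 3.15 CPM (SD, n = 6). Dmtn and Add2, whose products bind the spectrin and actin junction, fell by 0.60 and 0.56. Gypc, a partner of protein 4.1, fell by 0.57, and Xk, whose product is bound to Kell, by 0.55 (SE 0.09) with overlapping ages. The 5 not called were Add3, Tpm3, Slc2a1, Bcam and Slc29a1, with log2 fold changes of 0.02, 0.06, 0.18, 0.23 and -0.07.

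Markers of red cells and of other marrow cells were read beside these results. Their counts are to be set against 29.9% of all genes lower and 10.3% higher. All 10 erythroid markers were lower (median -0.90), and their summed level was 785 to 878 CPM in the old and 1238 to 1488 CPM in the young libraries. Of 10 neutrophil and myeloid markers 7 were higher, 0 lower and 3 not called, with sums of 1033 to 1248 CPM in old and 812 to 1226 CPM in young mice. Megakaryocyte markers with a peak were lower in 4 of 7, at 503 to 527 against 596 to 661 CPM, with no peak at Gp6 and the same 2 peaks counted for Pf4 and Ppbp. Macrophage markers were higher in 3 of 6 (113 to 125 against 108 to 121 CPM), B cell markers in 1 of 10 (551 to 696 against 592 to 701 CPM) and stem and progenitor markers in 0 of 7 (179 to 214 against 164 to 196 CPM). Of 8 T cell markers with a peak, 2 were lower and 1 higher (323 to 370 against 342 to 396 CPM). The part of these shifts in the members' values was not tested.

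The genes most like the members were found by the Pearson correlation of a gene's log2 CPM with the members' mean log2 CPM over the 12 libraries, as a description. Among the leading 5 that share no peak with a member were Ubac1 (r = 0.995), Slc22a23 (r = 0.995), Nprl3 (r = 0.994), which neighbours the alpha-globin genes, and Ube2o (r = 0.994), an enzyme that clears proteins from maturing red cells. The log2 fold changes of these 4 with age lay between -0.76 and -0.57. The points share libraries and the age difference itself; within the 6 young libraries their 4 correlations were 0.920 to 0.992 and within the 6 old ones 0.7101 to 0.9128.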

How the data were processed

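The authors deposited read counts of 12 ATAC-seq libraries over 75281 consensus peaks. The submitters' processing notes name Trimmomatic, BWA, MACS2, DiffBind and edgeR and the build mm10, with no role or version; how reads were shifted, deduplicated and counted is not given in the sources used here. The smallest deposited count was 1, which compresses fold changes of the weakest peaks; the members' smallest count was 11.

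Groups, mouse numbers and runs came from the labels. Genes were placed by position from RefSeq GRCm38.p6. Peaks and genes that reached more than 1 CPM in 2 or more libraries entered edgeR 4.0.16 in R 4.3.3 (TMM factors 0.929 to 1.05, quasi-likelihood test, age and sex, or 4 group means for effects within a sex and the interaction), adjusted by Benjamini-Hochberg over all tested features, threshold 0.05. Gene sums used the peak table's scaling, and neighbouring genes can share peaks. CPM values are counts scaled to the TMM-adjusted library size. For shares and ratios, exact permutation tests (two-sided, 924 rearrangements) were used. Depth, 7668099 to 12756647 counts, makes 3 counts worth 0.235 to 0.391 CPM; intervals from such counts would cover counting error only.

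Alternatives were DESeq2 1.42.0, other scalings, no filter, no sex term, a window of 3 kb or of the gene alone, the most accessible peak of a gene, and each library left out. Leaving out peaks nearer another gene or the start-site peak, the tests between pairs of members and the adjustment of share tests over all genes in place of the 8 members, and run as a term at 3 months, were chosen after seeing the data. The script was tested on simulated data. All 8 members are named, with the start-site or most accessible peak, and the peaks of the lowest and highest log2 fold change; the other membrane genes and the erythroid, neutrophil and myeloid, T cell, B cell, megakaryocyte, macrophage and stem and progenitor markers are lists described by counts. The members and lists were chosen with earlier results of these data known. Start sites for Slc4a1 and Ank1 were not matched, so the most accessible peak stood in. Results for some other genes of these lists are not reported here.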

Additional observations from a re-analysis of the deposited data

Results flagged for a closer look

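Of 48 groups of 6 libraries checked, 1 held a library far from the rest, where chance alone marks about 1 group in 20. In the share of Slc4a1 counts that fell in its most accessible peak, the 3-month female of run 29 stood at 38.03%, while the next library of that age had 35.2% and the lowest 33.6%. Without that library the age difference of the share was -1.08 percentage points, against -1.71 with it, and it did not pass the exact permutation test in either case.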

How the results depend on the processing

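No paired analysis was possible because no mouse number occurs in more than 1 group and no run holds both ages. The sexes share 2 of the 3-month runs, and with run as a term 0 member peaks and 0 member genes differed by sex at 3 months in edgeR (3 and 0 at an unadjusted p under 0.05, against 5.28% of all peaks and 3.74% of all genes). Over all settings 0 called results reversed. The 8 gene sums and 8 start-site or most accessible peaks gave 336 log2 fold changes over 24 settings, which reuse the same libraries. All 336 were negative and 335 were past the threshold. The exception was Epb42 when its most accessible peak stood for the gene (-0.21, edgeR adjusted p = 0.0702). With single libraries left out, the count of lower member peaks ran from 60 to 84, in females from 41 to 73 and in males from 25 to 40, that of lower member genes stayed at 8, that of genes with a changed share in the start-site or most accessible peak (6, adjusted over the 8 genes) ran from 4 to 6 and that of changed pairs from 17 to 18. Over all features the counts moved more: higher peaks numbered 11196 with scaling by total counts against 7089, and higher genes 3119 with total counts, 3158 with offsets by abundance trend, 3367 with DESeq2 and 1088 with the most accessible peak of each gene, against 1703. Lower genes numbered 3071 with trend offsets against 4925. Leaving out single libraries gave 7209 to 9713 lower and 5015 to 9032 higher peaks, and 4240 to 5374 lower and 1370 to 2292 higher genes. The cause of these shifts was not tested. A window of 3 kb, or adjustment over all genes, left 4 genes with a changed share, without Epb41 and Ank1. Depth limits the weakest member peaks, whose lowest count in a library was 11.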

Other observations

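The edge of the 10 kb window was examined by its nearest peaks. Of the 7 members with a peak outside the gene, the outermost peak inside the window had log2 fold changes of -0.97 to 0.06, and 4 of the 7 were lower in edgeR's test. The first peak beyond the window had -1.25 to -0.02 over the 8 genes, and 2 of the 8 were lower, where 11.6% of all tested peaks were. The larger of these 2 decreases, -1.25 (SE 0.10), lay 11.2 kb from Slc4a1 and so just outside the rule, and the other, -0.54 (SE 0.09), lay 11.3 kb from Rhd.

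Epb41 has 3 listed start sites, and their 250-base windows differ in composition: 65.2% GC at the outermost, 47.6% at the next and 73.6% at the innermost, with 3, 0 and 6 KLF matches and 0 GATA matches in each. The peaks over them fell by 0.70, 0.41 and 0.67 on the log2 scale.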
